A study of Homo sapiens with 4 samples.

Results

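The genes described here encode proteins that coat cytosolic lipid droplets or control the breakdown of the triglyceride inside them. They are the perilipins PLIN2, PLIN3, PLIN4 and PLIN5, the CIDE proteins CIDEB and CIDEC, the lipolysis inhibitors G0S2 and HILPDA, and the lipases PNPLA2 and LIPE. These 10 genes were chosen by function and found by symbol among the 56832 genes of the deposited table. The choice was made with the octanoate and vehicle values of these libraries already known. The differences of the 10 genes between the groups are therefore a description, and no p-value of theirs from the fits made here is given. Where a member is said to be called, this says on which side of the threshold used for all genes it fell, and is not a test of the choice. The limma intervals of the members are given only as a measure of spread. They come from the same contrast that was known at the choice, so nothing is read from where they end.

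Lipid droplets store fatty acids as triglyceride and sterol esters under a surface coat of perilipins, which limits the access of lipases. Lipolysis starts with PNPLA2, also called adipose triglyceride lipase, which is activated by ABHD5 and inhibited by G0S2 and HILPDA. It continues with LIPE, the hormone-sensitive lipase, and ends with MGLL, which cleaves monoacylglycerol. Several perilipin and CIDE genes are known targets of the fatty acid receptors of the PPAR family, and PLIN2 is the widely expressed coat protein of cells other than adipocytes.

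RNA was sequenced from A375, an established human melanoma cell line whose genotype the labels give as wild type. Octanoate, a medium-chain fatty acid, was given at 1 mM for 48 h in 2 of the libraries, and isopropanol, the vehicle, for 48 h in the other 2. All 4 libraries come from the same line grown in the same serum-containing medium. The labels do not say whether the 2 libraries of a group came from separate cultures, so tests measure only the spread between these libraries, which may be technical.

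Recovered read totals ran from 67785956 to 78005035 per library. Replicates differed by more than sampling noise, with a chi-square per degree of freedom of 3.48 within vehicle and 4.37 within octanoate, against 30.3 to 33.4 between groups. Of the melanocyte lineage markers, SOX10 had 34072 to 41363 normalised counts, with overlapping groups, whereas PMEL, MLANA, TYR and DCT, which serve the pigment programme, stayed between 1.93 and 98.2. MITF fell from 3533 and 3330 in vehicle to 2414 and 2511 in octanoate, and S100B from 4234 and 3741 to 1917 and 1746. PMEL rose from 65.8 and 65.9 to 98.2 and 95.4. The summed melanocyte list of 7 genes was 49274 and 44996 in vehicle and 43594 and 38499 in octanoate. The summed level of 5 adipocyte markers was 83.4 and 114 in vehicle and 205 and 191 in octanoate. CFD supplied most of it, at 69.7 and 87.2 against 188 and 176, while ADIPOQ, LEP and CIDEA stayed at 3.88 or below and PLIN1, the perilipin of adipocytes, between 7.85 and 20.3 in every library. The 3 endothelial markers summed to 207 and 201 in vehicle and 347 and 338 in octanoate. PECAM1 and VWF rose, whereas CDH5 overlapped between the groups, at 20.6 and 14.5 in vehicle and 8.66 and 21.7 in octanoate. The 5 fibroblast markers summed to 1314 and 1316 against 1121 and 1106, where COL1A1 and COL1A2 fell. DCN was lower without being called, and LUM and PDGFRA overlapped between the groups. The 4 keratinocyte markers overlapped between the groups in sum (4787 to 6703), with KRT1 at 0 in every library, but KRT14 fell from 1110 and 942 to 266 and 218. The 4 leukocyte markers summed to 665 and 597 against 722 and 774. LYZ supplied most of this and rose from 635 and 574 to 700 and 749. CD14 overlapped between the groups, and PTPRC and CD3E, at 10.8 or below, were lower in octanoate and too scarce to be tested. Markers said to rise or fall were called at a limma adjusted p under 0.05 over all tested genes. The part of the marker changes in the results below was not tested.

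Of the 9 members that could be tested (mean normalised count of at least 10), 6 were called higher under octanoate at a limma adjusted p under 0.05. The 6 are PLIN2, PLIN4, PLIN5, CIDEC, G0S2 and LIPE. Over all 20250 tested genes 29.9% were called and 16.2% were called higher. The median log2 difference of the 9 genes was 0.82, against 0.01 over all tested genes. Both octanoate libraries lay above both vehicle libraries for 7 of the 9, as they did for 32.6% of all tested genes. Because the members were chosen with this contrast in view, nothing is read from these counts. In bulk RNA, a change in every cell and a change in the number of expressing cells cannot be told apart.

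**Figure D1:**
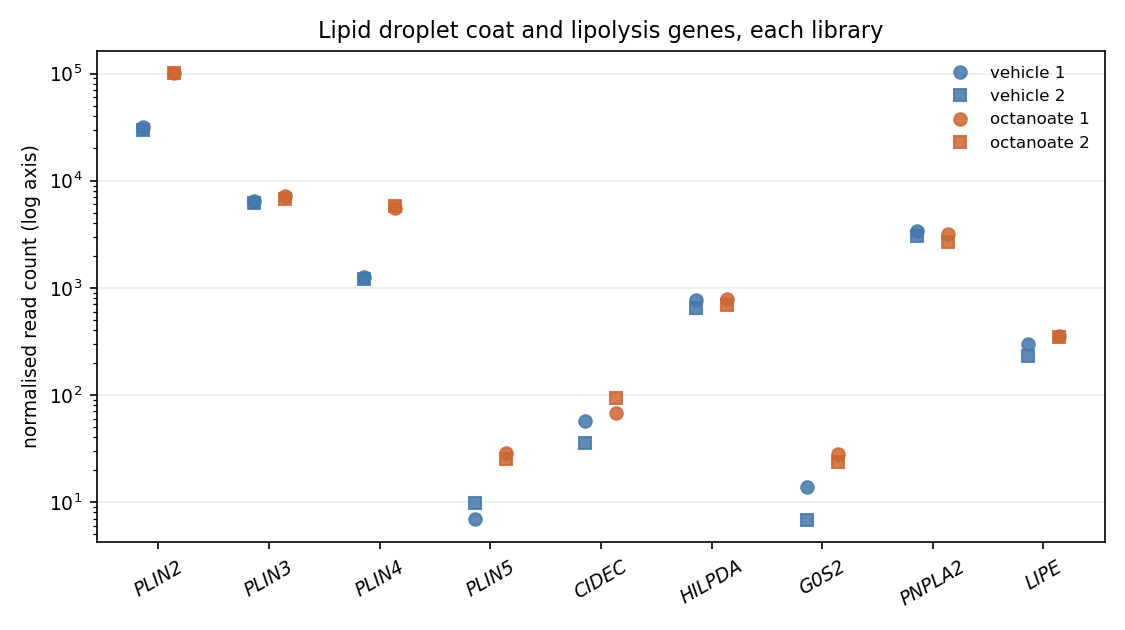
Normalised read counts (log axis) of the 9 members with reads, in each vehicle (blue) and octanoate (orange) library; circles are replicate 1 and squares replicate 2. The octanoate libraries stand apart above the vehicle libraries most widely for PLIN2 and PLIN4, while those of HILPDA and PNPLA2 overlap with vehicle.

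The perilipins differed in abundance and in the size of their difference between the groups. PLIN2 had 32043 and 29709 normalised counts in vehicle and 101036 and 100887 in octanoate. The groups lay far apart, and the octanoate libraries differed from each other by less than the vehicle libraries did. The ratio of the group means was 3.27 and the log2 difference 1.71 (limma 95% interval 1.58 to 1.84, n = 2 each). On the per-kilobase scale (normalised counts divided by the merged exon length in GENCODE 29), PLIN2 ranked 429 and 437 among 18747 protein-coding genes in vehicle and 103 and 99 in octanoate. PLIN2 spans chr9:19108375-19149290 on the minus strand (GENCODE 29, GRCh38), and none of its exon bases are shared with another gene.

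PLIN4, a perilipin with a long repeat region that is best known from adipocytes and muscle, showed the largest log2 difference of the group. It had 1252 and 1198 normalised counts in vehicle and 5581 and 5798 in octanoate. Both octanoate libraries were more than 4 times either vehicle library, and the ratio of the means was 4.64. The log2 difference was 2.21 (limma 95% interval 2.08 to 2.34, n = 2 each), the rank 68 from the top among 20250 tested genes, where PLIN2 ranked 125. PLIN4 lies at chr19:4502180-4518465 on the minus strand and shares 32 exon bases with HDGFL2 on the opposite strand.

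PLIN5, which couples droplets to mitochondria in oxidative tissues, was scarce. It had 6.87 and 9.69 normalised counts in vehicle and 28.9 and 24.9 in octanoate, from 7, 10, 30 and 23 reads. The groups did not overlap. The log2 difference was 1.60 with a wide limma interval of 0.74 to 2.46 (n = 2 each), and the gene was no longer called without octanoate 1, with every gene kept, or in the authors' table below. On the per-kilobase scale its level was at most 2.01 in vehicle and at least 5.18 in octanoate, against 5841 to 19866 for PLIN2. Within its exons, 21.7% of the bases are shared on the same strand with AC011498.4, so its count is uncertain.

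PLIN3, a perilipin that moves between cytosol and nascent droplets, was abundant and differed little. It had 6422 and 6140 normalised counts in vehicle and 7209 and 6700 in octanoate. The octanoate libraries were both higher, by a log2 difference of 0.15 (limma 95% interval 0.02 to 0.27, n = 2 each), which did not pass the threshold over all genes. It did with equal column totals, with edgeR and with a replicate block. In GENCODE 29, 17.8% of its exon bases are shared with AC027319.1 on the opposite strand.

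The make-up of the perilipin transcripts therefore differed between the groups. Of the summed per-kilobase level of the 4 genes, PLIN2 held 71.8% and 71.1% in vehicle and 85.3% and 85.8% in octanoate. PLIN3 held 26.0% and 26.6% in vehicle and 11.0% and 10.3% in octanoate. PLIN4 held 2.19% and 2.24% in vehicle and 3.68% and 3.86% in octanoate, and PLIN5 at most 0.0257% in any library. The sum itself was 8777 and 8210 in vehicle and 23293 and 23115 in octanoate. These shares are taken within a library and do not depend on its size factor.

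**Figure D2:**
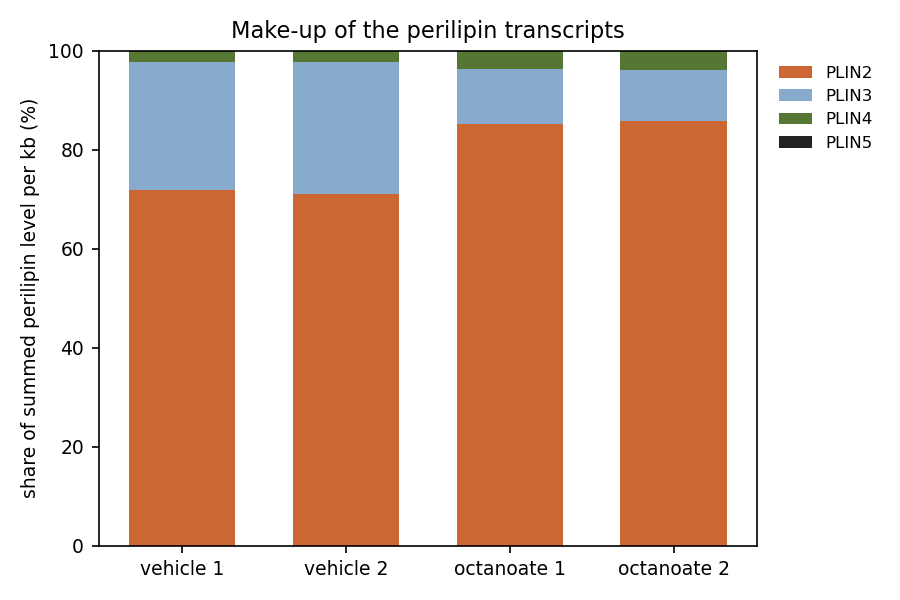
Share (%) of each perilipin in the summed per-kilobase level of PLIN2, PLIN3, PLIN4 and PLIN5, for each library; bars stack to 100%. The PLIN2 band is wider in both octanoate libraries (85.3% and 85.8%) than in both vehicle libraries (71.8% and 71.1%), and PLIN5 is too small to be seen.

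The sequences before the start sites of PLIN2 and PLIN4, the members with the widest separation of the groups, are shown because motifs of factors that respond to lipids or stress were searched there. They are from RefSeq (GRCh38.p14), on the strand of the gene, and 9 of the 10 members had such an entry, in 12 windows; HILPDA had none. The windows of 250 bases before the start were searched on both strands for AGGTCA, the core site of nuclear receptors, for its direct repeat with 1 base between, which PPAR-RXR pairs bind, for ACGTG, the core of the hypoxia response element, for CACGTG, the E-box, which contains ACGTG on both strands, and for TGATGCAA, a core shared by elements that bind ATF4 with a C/EBP partner. Capitals mark matches. PLIN2 is printed over chr9:19127577-19127742 and PLIN4 over chr19:4518487-4518736. For PLIN2 the last 84 bases are left out, from the first base that GENCODE 29 puts in an exon. The PLIN2 window lies before the RefSeq start but inside the GENCODE 29 span of the gene, which reaches chr9:19149290.
PLIN2: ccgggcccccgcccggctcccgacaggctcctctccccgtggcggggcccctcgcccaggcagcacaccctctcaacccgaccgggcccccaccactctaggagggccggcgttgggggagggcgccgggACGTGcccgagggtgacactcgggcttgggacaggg
PLIN4: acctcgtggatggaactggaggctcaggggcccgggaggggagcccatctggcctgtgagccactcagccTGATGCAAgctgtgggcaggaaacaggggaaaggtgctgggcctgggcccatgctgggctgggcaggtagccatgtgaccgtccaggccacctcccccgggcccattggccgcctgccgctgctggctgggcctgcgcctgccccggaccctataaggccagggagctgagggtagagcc

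The PLIN2 window holds ACGTG beginning 120 bases before the start, and CACGTG beginning 69 bases before it, in the stretch that is not printed. Of all 35116 windows of that length, 18.5% hold ACGTG and 6.34% hold CACGTG. The PLIN4 window holds TGATGCAA beginning 180 bases before the start, a motif held by 0.772% of all windows. AGGTCA was found in the window of PNPLA2 alone among the members, 239 bases before the start, and in 12.1% of all windows. The direct repeat was in no member's window and in 0.0171% of all windows. PLIN2 and PLIN4 thus held no motif in common among those searched. These are matches of letters, not measured binding.

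PLIN4, PLIN5 and PLIN3 lie on the same strand of chromosome 19, with 4065 bases between PLIN4 and PLIN5 and 303116 between PLIN5 and PLIN3. The other 9 tested protein-coding genes within 100 kilobases of this stretch had a median log2 difference of 0.03. Limma called 1 of them higher and 3 lower, where 29.9% of all genes were called. The log2 differences of the 9 ran from -0.25 for SEMA6B, a semaphorin, to 0.70 for LRG1, a secreted glycoprotein, which was not called. None of the 9 reached the 2.21 of PLIN4 or the 1.60 of PLIN5. HDGFL2, MYDGF and AC011498.4 also lie there but were not found under these names, so they are not among the 9.

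CIDE proteins enlarge droplets by moving lipid between those in contact. CIDEC had 56.9 and 35.8 normalised counts in vehicle and 68.3 and 94.3 in octanoate. The lower octanoate library was close to the higher vehicle library, though the groups did not overlap. The log2 difference was 0.82 (limma 95% interval 0.31 to 1.32, n = 2 each), from 58, 37, 71 and 87 reads. It was 0.49 without vehicle 2 and 0.59 without octanoate 2, and the call was lost in both cases. Without vehicle 1 it was 1.14. With every gene kept, without the intensity trend and with DESeq2, the CIDEC call was lost as well. CIDEC shares 193 bases at 96.4% identity with its pseudogene CIDECP, which had 399 and 363 normalised counts in vehicle and 383 and 325 in octanoate, so reads of both can be confused. CIDEC lies at chr3:9866711-9880254 on the minus strand.

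CIDEB, the CIDE protein of liver, was listed at 0 in all 4 libraries, where 3 reads would be 2.89 to 3.25 normalised counts. This 0 cannot be read as absence of the transcript. All 3198 of its exon bases at chr14:24305096-24311430 lie inside exons of NOP9 and LTB4R2 on the opposite strand in GENCODE 29. Of the 18 protein-coding genes of the table whose exons are wholly covered in this way, 16 (88.9%) were listed at 0 in every library, against 7.11% of 12363 genes with no such overlap and 1.87% of 6366 genes with partial overlap. NOP9, a ribosome assembly factor, had 1302 to 1399 normalised counts and LTB4R2, a leukotriene receptor, 95.4 to 128.

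The short inhibitors of PNPLA2 stood at different levels, G0S2 low and HILPDA moderate. G0S2 had 13.7 and 6.78 normalised counts in vehicle and 27.9 and 23.8 in octanoate, from 14, 7, 29 and 22 reads. All octanoate values were above the vehicle values. The log2 difference was 1.32 with a limma interval of 0.45 to 2.19 (n = 2 each). Its call was lost without vehicle 2 (0.86), without octanoate 1 (1.21) and without octanoate 2 (1.43), and its value without vehicle 1 was 1.78. With all libraries present, the call was lost with every gene kept and without the intensity trend. At this depth it rested on both the libraries and the settings of the fit. G0S2 lies at chr1:209675420-209676388 on the plus strand and shares no exon base.

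HILPDA, which is also known as a hypoxia-induced droplet protein, was more abundant and showed no separation of the groups. It had 771 and 641 normalised counts in vehicle and 786 and 687 in octanoate. Replicate 1 was the higher library in each group, and the ranges overlapped. On the log2 scale the difference was 0.06 (limma 95% interval -0.13 to 0.26, n = 2 each). HILPDA lies at chr7:128455849-128458418 on the plus strand, with 13.2% of its exon bases shared on the same strand with AC010655.4 and AC010655.2.

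The lipases had smaller differences than PLIN2 and PLIN4. PNPLA2 had 3422 and 3067 normalised counts in vehicle and 3179 and 2650 in octanoate. The groups overlapped, and octanoate 2 was the lowest library. On the log2 scale the difference was -0.16 (limma 95% interval -0.31 to -0.00242, n = 2 each), which did not pass the threshold over all genes. It was -0.29 without octanoate 1 and -0.24 without vehicle 2, both called, and -0.03 without octanoate 2 and -0.08 without vehicle 1, neither called. With a replicate block it was called lower. PNPLA2 lies at chr11:818902-825573 on the plus strand and shares 10.4% of its exon bases with AP006621.1 on the opposite strand.

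LIPE had 301 and 229 normalised counts in vehicle and 356 and 346 in octanoate. The octanoate libraries were close together and above both vehicle libraries. The log2 difference was 0.42 (limma 95% interval 0.16 to 0.67, n = 2 each). Without vehicle 2 it was 0.22 and not called, and without vehicle 1 it was 0.62 and called. The LIPE call was also lost with every gene kept, without the intensity trend and with DESeq2. LIPE lies at chr19:42401507-42427426 on the minus strand and shares 9.60% of its exon bases with LIPE-AS1 on the opposite strand.

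**Figure D3:**
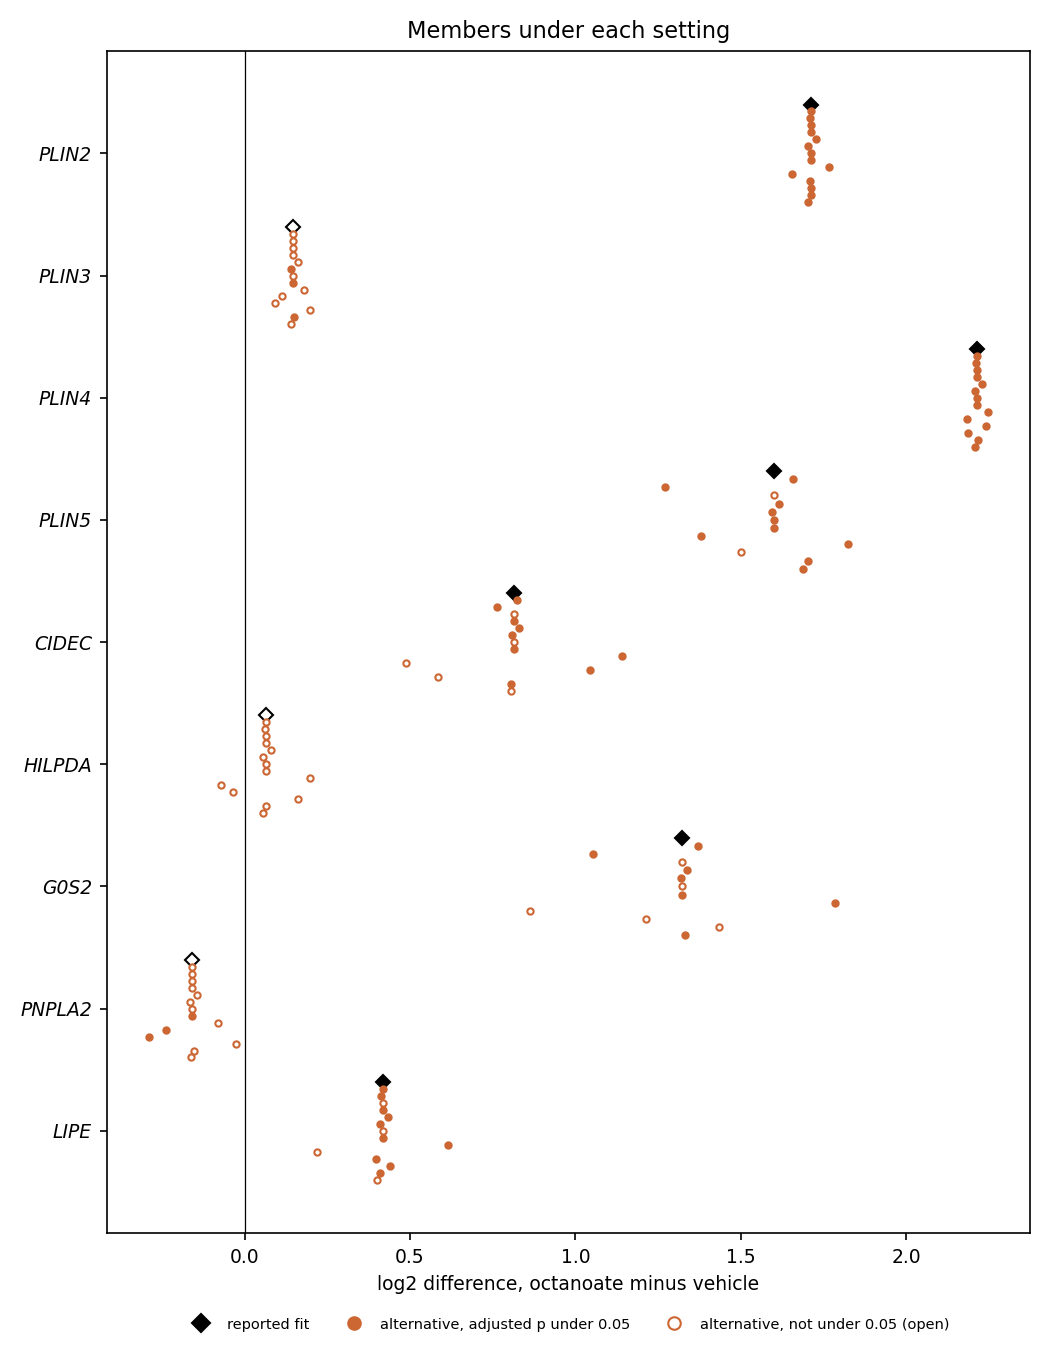
Log2 difference (octanoate minus vehicle) of each tested member in the reported fit (black diamond) and under each alternative (orange circle); filled symbols have an adjusted p under 0.05. PLIN2 (1.66 to 1.76) and PLIN4 (2.18 to 2.25) are filled under every alternative, whereas CIDEC, G0S2, PLIN5 and LIPE have open circles and HILPDA has open circles on both sides of 0.

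Within a library, the ratio of coat to lipase transcripts was read from the per-kilobase levels. PLIN2 over PNPLA2 was 7.08 and 7.32 in vehicle and 24.0 and 28.8 in octanoate. PLIN4 over PNPLA2 was 0.216 and 0.231 in vehicle and 1.04 and 1.29 in octanoate, so PLIN4 went from well below PNPLA2 to about its level. PNPLA2 over LIPE was 15.4 and 18.2 in vehicle and 12.1 and 10.4 in octanoate. None of these ratios overlapped between the groups, but neither did the counts of 12773 of all 20250 tested genes. The members were chosen with their values known, so nothing is read from this separation.

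**Figure D4:**
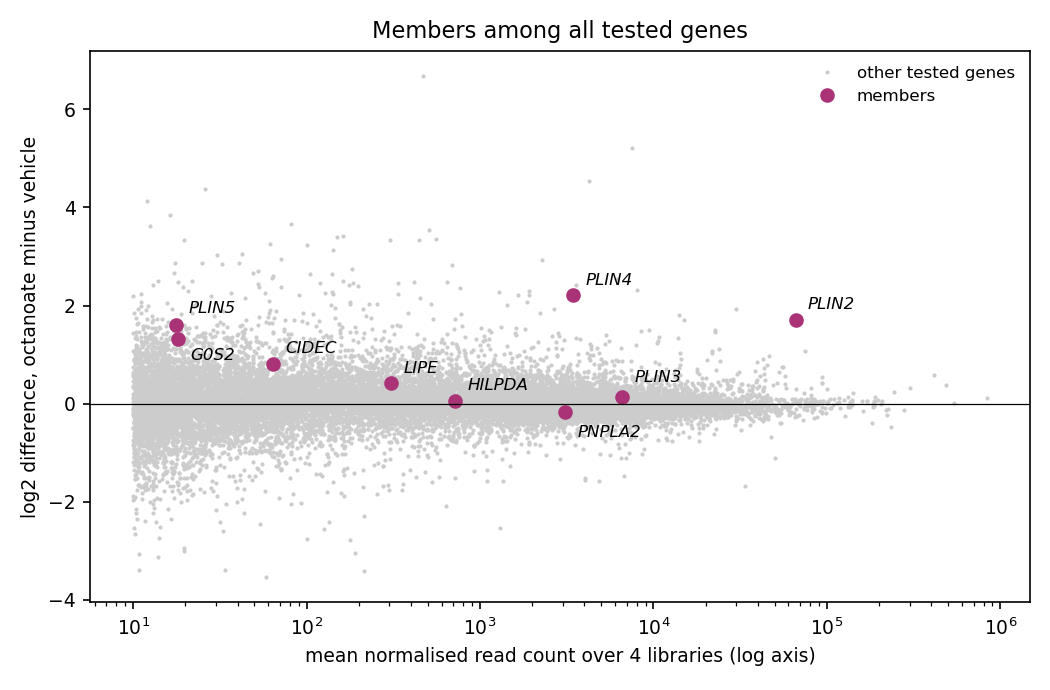
Log2 difference (octanoate minus vehicle) against the mean normalised count over the 4 libraries (log axis) for all 20250 tested genes (grey) with the 9 tested members (purple). PLIN2, at a log2 difference of 1.71, stands above the grey points of like abundance, while PLIN5, G0S2 and CIDEC lie at low counts where the grey points spread widely.

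The authors' deposited table lists 33533 genes, of which 12.9% fall below an adjusted p of 0.05. Of the 9 members listed in the authors' deposited table, those called were PLIN2 (log2 fold change 1.71, SE 0.06) and PLIN4 (2.21, SE 0.07). The authors' deposited table gave log2 fold changes of 1.70 (SE 0.73) for PLIN5, 1.34 (SE 0.72) for G0S2, 0.81 (SE 0.40) for CIDEC and 0.41 (SE 0.19) for LIPE, none of them called there. PLIN5 and G0S2 carry an adjusted p of exactly 1 in the authors' deposited table, which 16253 genes share.

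Beyond the members, 40 further genes of droplet biology were listed by role, with earlier results of these data known. The share called and the adjusted p-values of this list are therefore a description and not a test of the choice. All 40 were found in the table, 3 of them under the older symbols AGPAT6 (now GPAT4), TMEM159 (LDAF1) and SPG20 (SPART). Of the 33 tested, 7 were called higher and 4 lower by limma, 33.3% against the 29.9% of all genes. Their median log2 difference was 0.06. The other 7, MOGAT1, MOGAT2, MOGAT3, FITM1, CIDEA, HSD17B13 and CES1, were below a mean of 10.

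Triglyceride is built from glycerol 3-phosphate by acyltransferases, lipins and DGAT enzymes. Of 11 tested genes of this route, 4 rose and none fell by limma, where 29.9% of all genes were called. Both octanoate libraries lay above both vehicle libraries for 5 of the 11 and below them for 5. Over all 20250 tested genes this held for 6601 and 6172. LPIN1 and GPAM had unadjusted p under 0.05 by limma in the lower direction. LPIN1 was called lower by edgeR and with equal column totals. A replicate block called LPIN1, GPAM and AGPAT1 lower and DGAT1 higher. DGAT1 was also called without vehicle 1 and without octanoate 2. GPAT3, which adds the first acyl chain at the endoplasmic reticulum, had 10497 and 9834 normalised counts in vehicle and 15869 and 16899 in octanoate, which is 0.69 on the log2 scale (SE 0.06, adjusted p 2.04e-09 by limma). AGPAT2, which adds the next chain, rose by 0.27 (SE 0.07, adjusted p 0.00329 by limma), and LPIN2, a phosphatidate phosphatase, by 0.24 (SE 0.06, adjusted p 0.00369 by limma). DGAT2, which makes triglyceride and is named after its value was seen, rose by 0.36 (SE 0.10, adjusted p 0.00528 by limma). This call was lost without vehicle 2, with every gene kept and without the intensity trend. The calls of AGPAT2 and LPIN2 were lost without the intensity trend (limma adjusted p 0.180 and 0.155 in the same order). They were also lost with every gene kept (limma adjusted p 0.134 and 0.0983). The AGPAT2 call was lost without octanoate 1 (log2 difference 0.18), and the LPIN2 call without vehicle 2 (0.19) or octanoate 2 (0.19).

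No gene of sterol ester synthesis (SOAT1, SOAT2) and none of the 3 tested genes of droplet formation (BSCL2, TMEM159, FITM2) was called by limma, edgeR or DESeq2, and 0 of these 5 had an unadjusted p under 0.05; with a replicate block SOAT1 and FITM2 were called. Their log2 differences lay between -0.19 and 0.12.

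Among 11 tested further proteins of the droplet surface, 1 rose and 2 fell by limma, where 29.9% of all genes were called. FAF2, which takes part in protein degradation at the endoplasmic reticulum and droplets, was not called (log2 difference -0.14), but edgeR and DESeq2 called it, as did equal column totals, a replicate block and the fit without vehicle 2. HSD17B11 was called with a replicate block and VPS13C without octanoate 1. ACSL3, an acyl-CoA synthetase that sits on nascent droplets, had 30149 and 29262 normalised counts in vehicle and 54638 and 56407 in octanoate, which is 0.90 on the log2 scale (SE 0.06, adjusted p 1.56e-11 by limma). METTL7A, a methyltransferase of the endoplasmic reticulum and droplets, had 581 and 577 in vehicle and 368 and 353 in octanoate, which is -0.68 on the log2 scale (SE 0.10, adjusted p 5.25e-06 by limma). RAB18, a small GTPase, differed by -0.17 on the log2 scale (SE 0.06, adjusted p 0.0412 by limma). This call was lost with TMM factors (limma adjusted p 0.0785), with every gene kept and without the intensity trend. It was also lost without vehicle 1, vehicle 2 or octanoate 2 (log2 differences -0.18, -0.16 and -0.12). PLIN1 differed by -0.13 on the log2 scale (SE 0.50, adjusted p 0.883 by limma) on few reads.

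The other lipases and their regulators split by direction, 2 of 6 rising and 2 falling by limma, where 29.9% of all genes were called. DDHD2, a phospholipase with triglyceride lipase activity, was not called (log2 difference 0.14), but edgeR, equal column totals and a replicate block called it. MGLL, the last enzyme of lipolysis, had 2737 and 2536 normalised counts in vehicle and 3847 and 3614 in octanoate, which is 0.50 on the log2 scale (SE 0.06, adjusted p 1.48e-06 by limma). ABHD6, another monoacylglycerol lipase, rose by 0.42 (SE 0.07, adjusted p 0.000122 by limma). Without the intensity trend neither MGLL (adjusted p 0.0528) nor ABHD6 (0.109) was called, and with every gene kept ABHD6 was not (0.0602). LIPA, the acid lipase of lysosomes, had 6254 and 6169 normalised counts in vehicle and 4573 and 4434 in octanoate, which is -0.46 on the log2 scale (SE 0.06, adjusted p 9.82e-07 by limma). PNPLA3, a paralogue of PNPLA2 that is named after its value was seen, differed by -0.21 on the log2 scale (SE 0.08, adjusted p 0.0461 by limma). This call was lost with any of the 4 libraries left out. It was also lost with TMM factors, with every gene kept, without the intensity trend and with DESeq2. ABHD5, the activator of PNPLA2, had 1993 and 2123 normalised counts in vehicle and 2026 and 2027 in octanoate, with overlapping groups and a difference of -0.02 on the log2 scale (SE 0.07, adjusted p 0.846 by limma).

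**Figure D5:**
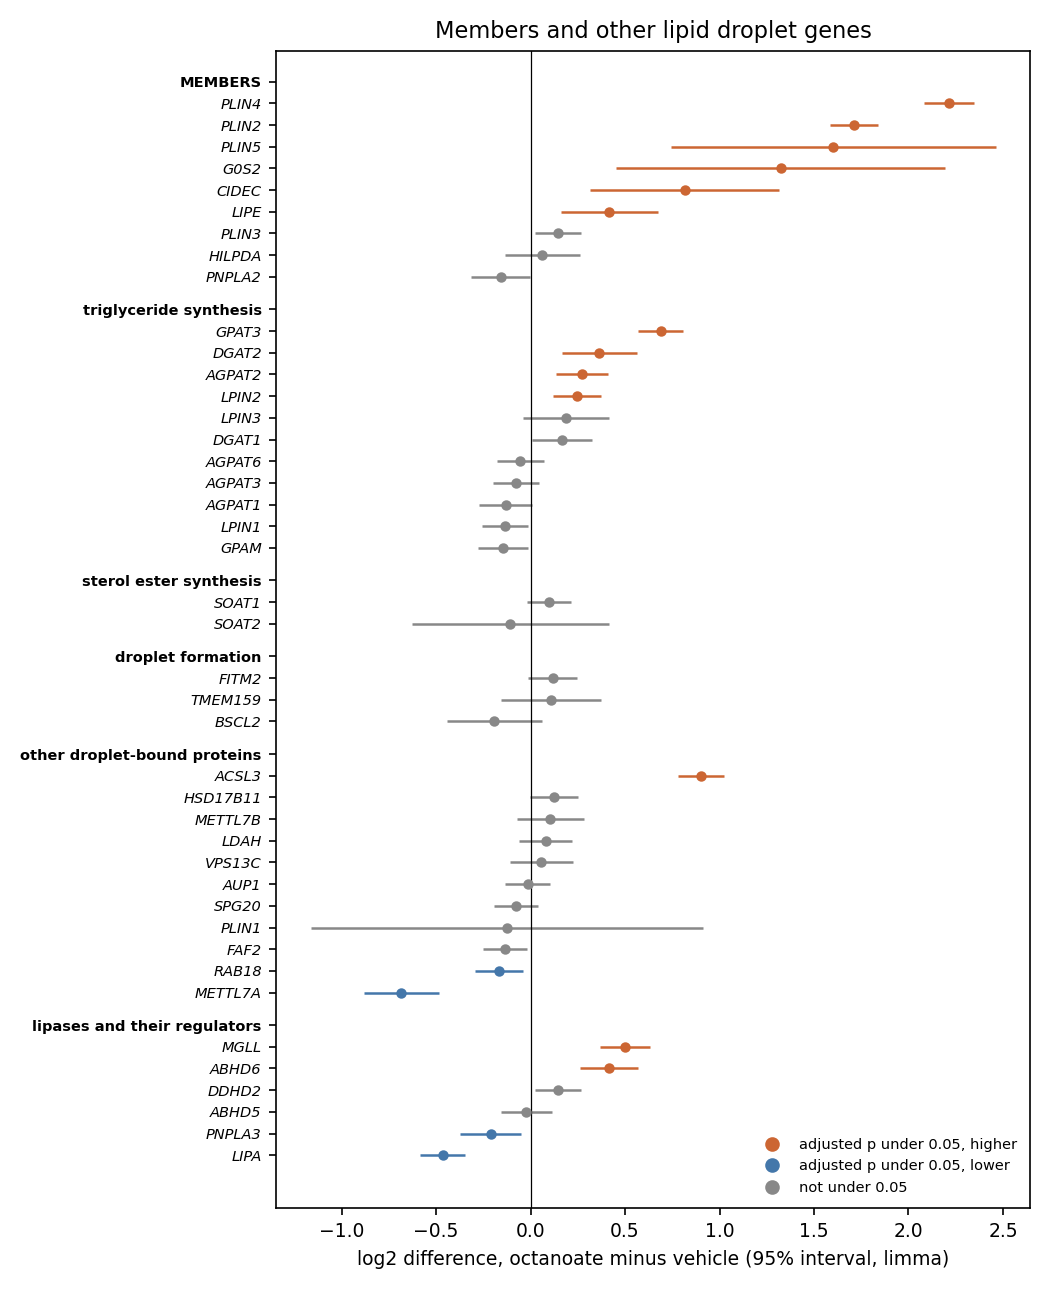
Log2 difference (octanoate minus vehicle) with limma 95% intervals for the 9 tested members and the 33 other tested lipid droplet genes, grouped by role; orange marks genes called higher, blue genes called lower, grey genes not called. PLIN4 and PLIN2 have narrow intervals, while PLIN5, G0S2 and PLIN1 have wide intervals. The genes were chosen with earlier results known, so the intervals are a description and not a test of the choice.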

How the data were processed

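RNA from 2 vehicle and 2 octanoate libraries was analysed. Per the submitters' processing notes, the tools were bcl2fastq 2.17, Trim Galore, STAR 2.4, Picard, HTSeq 0.9.1 and DESeq2, with build hg38; the annotation and the strand setting are not given in the sources used here. The deposited signal per gene is a read count divided by 1 size factor per library, per the table's name. Whole reads were recovered by taking the lowest value above 0 in a library as 1 read, and 100% of the values came out whole (relative tolerance 1e-06). The second table holds the authors' log2 fold change, mean signal, test score, p-value and adjusted p-value.

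limma 3.58.1 (R 4.3.3) was fitted with an intensity trend to log2(normalised count + 1) for genes with a mean of at least 10, with Benjamini-Hochberg adjustment over 20250 genes, two-sided, with a call threshold of 0.05. The pseudocount makes differences of low genes too small. An exact permutation test of 2 against 2 cannot go below 0.333. The fit was tested on simulated data with the same dispersion for every gene and few changed genes. This gives no error rate for these libraries. Alternatives were other pseudocounts, filters and scalings, no trend, a replicate block, leaving out each library, and edgeR 4.0.16 and DESeq2 1.42.0 on the recovered reads.

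Members and lists were chosen with earlier results of these data known. Of the other droplet genes, the rule names the 3 called genes with the smallest p of each role and ABHD5, PLIN1, CIDEA and MGLL. Others are given with a call or direction outside this rule, after their values were seen. They are DGAT2, PNPLA3, LPIN1, GPAM, AGPAT1, DGAT1, SOAT1, FITM2, FAF2, HSD17B11, VPS13C and DDHD2. By rule the promoter of the called member with the largest rise (PLIN4) was printed; that of PLIN2 was added after its values were seen, and no member was called lower. GENCODE 29 gave positions and exon overlaps, and blastn 2.17.0 shared sequence (at least 95% identity over 100 bases).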

Additional observations from a re-analysis of the deposited data

How the results depend on the processing

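PLIN2 and PLIN4 were called under all 14 alternatives. With every gene kept, 2595 genes, 2 members and 5 other droplet genes were called, against 6048, 6 and 11 in the reported fit. Without the intensity trend these were 1625, 3 and 4, and DESeq2 called 2 members, having set no adjusted p for PLIN5 and G0S2. The prior degrees of freedom were 21.2 in the reported fit, 3.45 with every gene and 1.57 without the trend. Leaving out each library gave 4382 to 4878 genes, 4 to 6 members and 8 to 10 other droplet genes, with the lone library assumed to vary like the other group. Leaving out single libraries also changed signs: HILPDA ran from -0.070 (without vehicle 2; -0.03 without octanoate 1) to 0.20 (without vehicle 1), ABHD5 from -0.067 (without vehicle 1) to 0.024 (without vehicle 2), and PLIN1 from -0.76 (without vehicle 1) to 0.51 (without vehicle 2; 0.25 without octanoate 2); none of these was called. With the replicate number as a replicate block, 8376 genes, 8 members and 20 other droplet genes were called, adding PLIN3 (higher) and PNPLA2 (lower) to the 6. The labels do not say what the numbers mark; deviations of same-numbered libraries had a correlation of 0.13 over genes, with 2 pairs. A filter at a mean of 50 left out PLIN5 and G0S2. Counts near 10 limit PLIN5, G0S2 and PLIN1 most.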
